A study of Mus musculus with 9 samples.

Results

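The genes described here encode the cytosolic translation initiation and elongation factors of the mouse. They are the 59 protein-coding genes, of 54876 genes in the deposited table, whose symbols begin with Eif1 to Eif6, Eef1 or Eef2, without the eIF2 kinases, the 4E-binding proteins and the eIF5A genes. Expression was measured by RNA-seq in MIN6 cells, an insulin-producing line derived from a mouse insulinoma and labelled as C57BL/6, kept for 24 h at 1 of 3 arginine concentrations. Low arginine medium held 0.1 times and high arginine medium 20 times the concentration of the standard medium, and no other treatment or genetic change was listed. Each medium had 3 libraries. The design text assigned the cells to media at random, but no label says whether the 3 libraries of a group came from separate cultures. The p-values therefore reflect the spread between the sequenced samples alone, and that spread may be technical.

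Translation of a cytosolic mRNA starts when the eIF4F complex (cap-binding eIF4E, scaffold eIF4G and helicase eIF4A) opens the mRNA and the eIF3 complex brings it to the small ribosomal subunit. That subunit carries eIF1, eIF1A, eIF5 and the initiator tRNA bound to eIF2, scans to a start codon, and joins the large subunit with the help of eIF5B. The exchange factor eIF2B reloads eIF2 with GTP. After that, eEF1A delivers each aminoacyl-tRNA, the eEF1B subunits reload eEF1A, and eEF2 moves the ribosome along by a codon. Amino acid supply is known to reach this machinery through GCN2, which phosphorylates eIF2, and through mTORC1, which controls the 4E-binding proteins and the eEF2 kinase. Beta cells translate insulin mRNA at a high rate and are sensitive to loss of this control.

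The values are FPKM, fragments scaled to gene length and library size, and levels below are compared between genes on this length-scaled unit. Reads in genes were 21550637 to 26300872 per library. A gene was tested where 3 or more of the 9 libraries reached an FPKM of 1, which held for 12300 genes. Of the 59 factor genes, 57 were tested, and Eif4e1b and Eif2s3y were listed at 0 in every library. Changes are differences of log2(FPKM + 1), a scale that understates the change of low genes. A gene was called at a limma p-value under 0.05 after Benjamini-Hochberg adjustment over all tested genes, and "adjusted p" below always means this value. In RNA from whole cultures, fewer cells of a type and less RNA per cell cannot be told apart.

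Of 10 beta cell markers, 9 were tested, and their summed level was 79114 to 80664 FPKM in low, 74228 to 82799 FPKM in standard and 75761 to 78269 FPKM in high arginine libraries. That sum is nearly all Ins2 and Iapp, and other markers differed in both directions. Pdx1 and Nkx6-1, regulators of beta cell identity, averaged 373 ± 22.7 and 190 ± 5.37 FPKM in low arginine and 150 ± 8.88 and 66.3 ± 2.70 FPKM in standard medium, while Ins1 and G6pc2 averaged 1065 ± 43.1 and 399 ± 25.2 FPKM in low arginine and 1542 ± 133 and 716 ± 51.9 FPKM in standard medium (SD, n = 3 each). Slc2a2, the glucose transporter of mouse beta cells, stood near 0, at no more than 0.0331 FPKM. Of 3 delta cell markers 1 was tested, and their sum, nearly all Sst, was 8663 to 11255 FPKM in low against 5383 to 6162 FPKM in standard arginine, while Hhex, a delta cell regulator, was at or near 0. Of 5 alpha cell markers 2 were tested, and their sum, mostly Ttr, was 260 to 341 FPKM in low against 890 to 991 FPKM in standard arginine. The single PP cell marker, Ppy, stood at 51.6 to 58.9 FPKM in low and 45.2 to 51.5 FPKM in standard arginine. Acinar, stromal, endothelial and leukocyte markers each summed to less than 1 FPKM. The part of these marker genes in the results below was not tested.

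In low against standard arginine factor genes changed in both directions. Of the eIF1, eIF5 and eIF6 genes, which act in scanning, start codon choice and the joining of the ribosomal subunits, 6 of 8 rose, of the elongation factors 5 of 6 fell, and the eIF2B, eIF3 and eIF4 genes held rises and falls side by side. Of the 57 tested genes, 15 rose, 24 fell and 18 were not called. The 39 calls make 68.4% of the tested factor genes, beside 62.2% of all genes, of which 30.3% were called higher and 31.9% lower, so the share of calls was near the background. By role the share called was 100% for the eIF1, eIF5 and eIF6 genes, 83.3% for the elongation factors and 80.0% for eIF2B. It was 66.7% for eIF4, 64.3% for eIF3, 42.9% for enzymes and partners of elongation factors and 40.0% for eIF2 and its substitutes. Each role holds few genes, and these shares were not tested. The median log2 change was -0.05 for the factor genes and 0.00 for all genes. In 41 of the 57 genes the 3 low and 3 standard arginine libraries did not overlap, beside 65.4% of all genes.

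**Figure D1:**
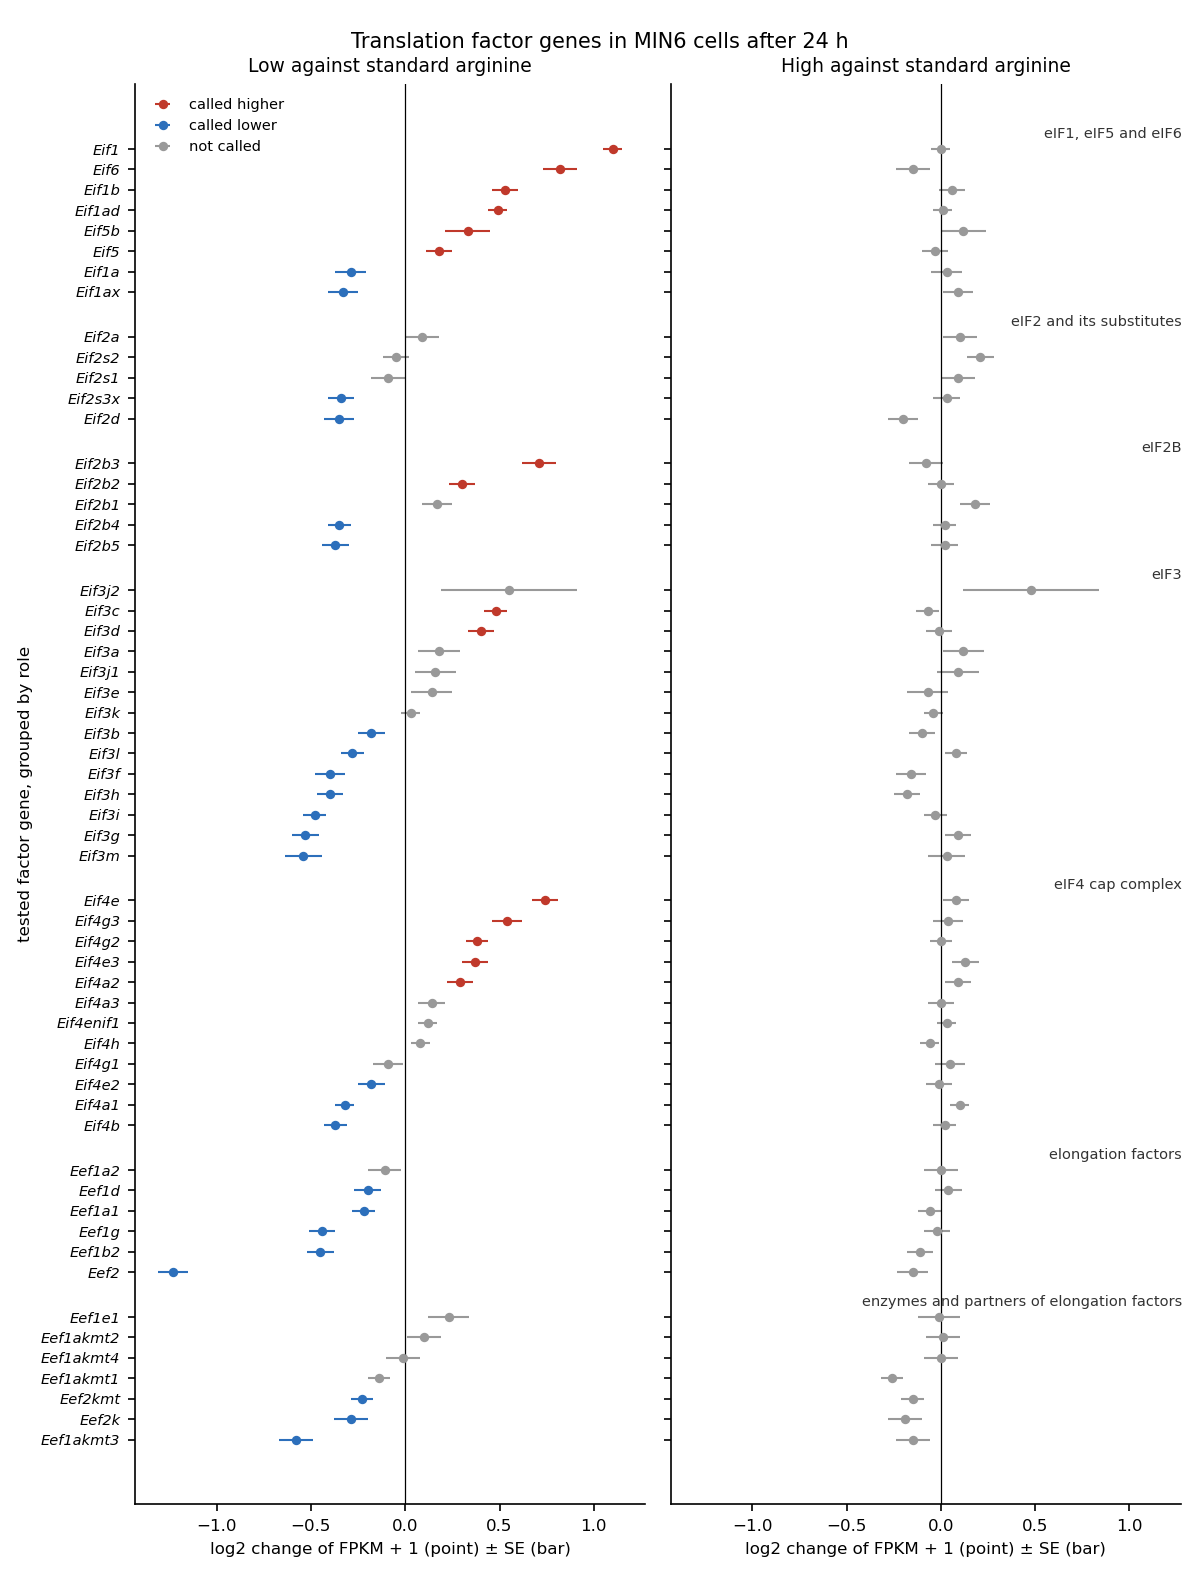
Log2 change of FPKM + 1 (point) with its standard error (bar) for the 57 tested factor genes, grouped by role, in low (left) and high (right) against standard arginine. The left panel runs from -1.23 for Eef2 to 1.10 for Eif1, while no gene of the right panel is called and the widest of its points, Eif3j2 at 0.48, has a long error bar.

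The balance of rises and falls depended on scaling. The library size behind the deposited FPKM was 1.048 to 1.077 times the reads in genes in low and 0.962 to 1.016 times in standard arginine libraries. A larger library size gives a lower FPKM at the same share of reads. When the values were rescaled to TPM, which fixes each library's sum over genes, the median of all genes moved by 0.115 on the log2 scale in low against standard arginine, and 22 factor genes rose and 16 fell. Quantile normalization gave 21 rises and 22 falls. Relative to the median of all genes, the factor genes stood at -0.05 in the deposited scale and at -0.05 under TPM, but at 0.05 after quantile normalization. Eif4h, Eif4a3, Eif4enif1, Eif2b1, Eif3a and Eif3k, which were not called in the deposited scale, were called higher under both scalings.

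All 8 genes of eIF1, eIF1A, eIF5, eIF5B, eIF6 and the eIF1A-like Eif1ad were called in low arginine, 6 higher and 2 lower, with a median log2 change of 0.41, and under TPM 6 were higher and 0 lower. Without the filter on low values 4 were higher and 2 lower, and with only the 2 groups compared 5 and 2. Their summed level was 644 ± 6.16 FPKM in low arginine, 375 ± 9.28 FPKM in standard and 372 ± 5.18 FPKM in high (SD, n = 3 each). The low arginine sums did not overlap those of either other medium, and the standard and high arginine sums lay side by side. Eif1 alone made most of the rise in the sum, averaging 363 FPKM in low arginine and 169 FPKM in standard medium.

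Eif1 encodes the small protein that keeps the scanning ribosome from starting at poor start codons, and lies at chr11:100319885-100322096 on the plus strand (GRCm38). It had 363, 365 and 361 FPKM in the low arginine libraries, against 171, 174 and 161 FPKM in the standard arginine libraries. The 3 low arginine values were nearly the same and stood far above every other library, including the high arginine libraries at 167, 171 and 167 FPKM. The ratio of means was 2.15 for low over standard arginine, and the log2 change was 1.10 ± 0.05 (SE; limma adjusted p = 4.51e-08). A stretch of 662 bases of an Emd transcript is 96.7% identical to Eif1, and Emd had 43.8% as many reads as Eif1. Emd itself stood at 76.5, 84.5 and 78.3 FPKM in low arginine and at 98.4, 95.7 and 89.4 FPKM in standard medium, the opposite direction to Eif1.

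Eif1b, the near twin of Eif1, had 65.9, 72.4 and 67.3 FPKM in low against 47.8, 50.1 and 44.1 FPKM in standard arginine, a log2 change of 0.53 ± 0.07 (SE; limma adjusted p = 7.21e-05). Eif6, which keeps the large ribosomal subunit from joining too early, had 106, 96.3 and 96.4 FPKM in low against 62.8, 56.2 and 49.3 FPKM in standard arginine. Its log2 change was 0.82 ± 0.09 (SE; limma adjusted p = 1.42e-05), and in both genes the lowest low arginine library stood above the highest standard one. Eif1ad, which encodes a protein with an eIF1A-like domain, had 45.8, 48.3 and 46.0 FPKM in low against 33.1, 33.4 and 32.5 FPKM in standard arginine (log2 change 0.49 ± 0.05, SE; limma adjusted p = 9.19e-06). These 3 genes rose in every low arginine library relative to every standard arginine library.

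Eif5, the GTPase activator of eIF2, and Eif5b, the GTPase of subunit joining, had small rises with log2 changes of 0.18 ± 0.07 and 0.33 ± 0.12 (SE; limma adjusted p = 0.0387 and 0.0278), that of Eif5 being 0.31 under TPM. Eif5b had 9.22, 6.04 and 6.85 FPKM in low against 5.23, 5.35 and 6.13 FPKM in standard arginine, so its groups overlapped and the first low arginine library was the high one. The 2 genes that fell encode eIF1A, which holds the initiator tRNA in place with eIF1. Eif1a had 18.0, 20.2 and 19.4 FPKM in low against 21.6, 23.1 and 26.5 FPKM in standard arginine, and Eif1ax had 10.8, 13.2 and 12.5 FPKM in low against 14.5, 15.3 and 16.9 FPKM in standard arginine. Their log2 changes were -0.29 ± 0.08 and -0.33 ± 0.08 (SE; limma adjusted p = 0.00818 and 0.00543), and neither was called under TPM (limma adjusted p = 0.120 and 0.0597). The groups of both did not overlap.

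**Figure D2:**
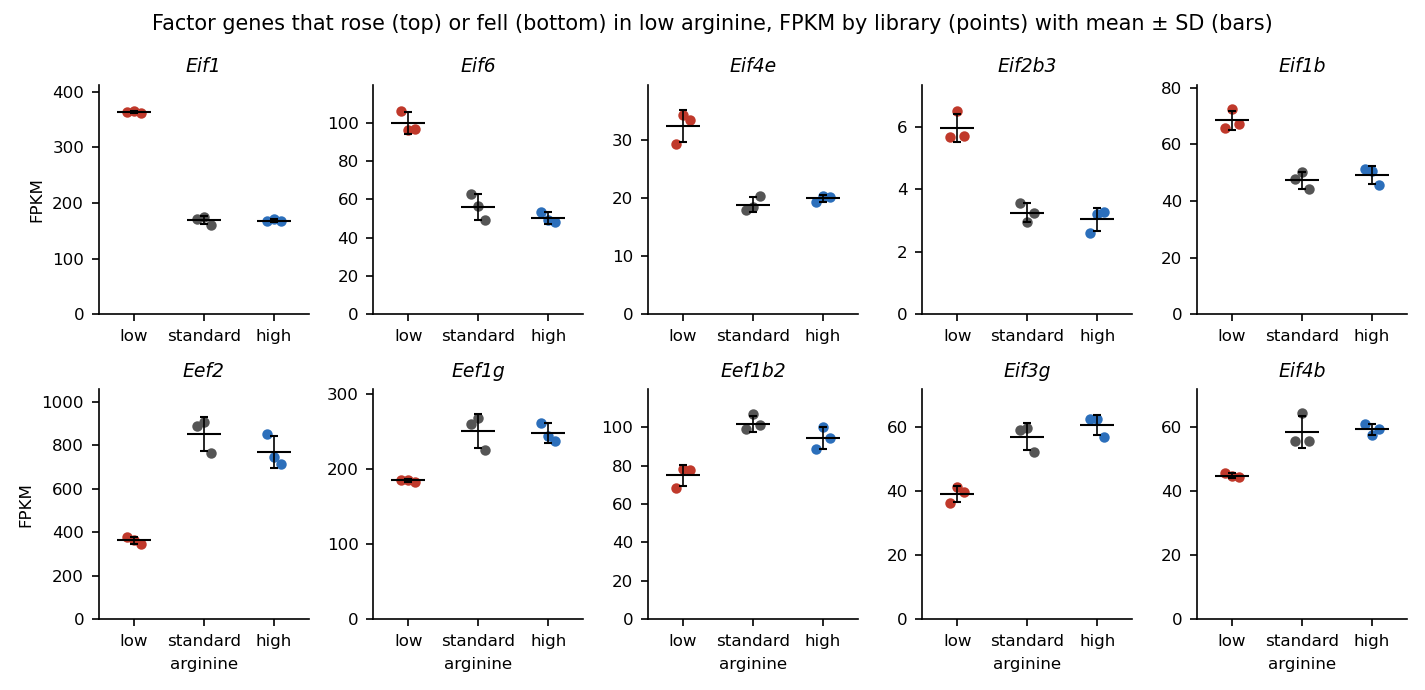
FPKM of 10 factor genes in each library (points) with the mean ± SD of each group (bars), in low, standard and high arginine, each panel with its own axis from 0. The upper row shows 5 genes that rose in low arginine, such as Eif1 at 361 to 365 FPKM in low against 161 to 174 FPKM in standard arginine, and the lower row shows 5 that fell, such as Eef2 at 346 to 377 FPKM in low against 763 to 909 FPKM in standard arginine.

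The eIF4 genes, 12 tested of 13, moved in both directions, with 5 called higher and 3 lower in low arginine and a median log2 change of 0.13. That is 66.7% called, near the 62.2% of all genes. Under TPM the same count was 8 higher and 2 lower. Their summed level was 623 ± 8.74 FPKM in low arginine, 583 ± 13.9 FPKM in standard and 598 ± 2.51 FPKM in high (SD, n = 3 each).

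Eif4e encodes the protein that binds the mRNA cap, and lies at chr3:138526179-138559696 on the plus strand. It had 29.3, 34.4 and 33.4 FPKM in low against 18.0, 18.4 and 20.4 FPKM in standard arginine. The lowest low arginine library was well above all 6 others, and the high arginine libraries, at 19.3, 20.4 and 20.2 FPKM, lay among the standard ones. The ratio of means was 1.71 for low over standard arginine (log2 change 0.74 ± 0.07, SE; limma adjusted p = 7.90e-06). Eif4e3, a cap-binding relative, had 12, 12.9 and 13.5 FPKM in low against 9.17, 9.55 and 10.2 FPKM in standard arginine, and also rose (log2 change 0.37 ± 0.07, SE; limma adjusted p = 8.16e-04). Eif4e2, which encodes the relative 4EHP that represses translation, had 5.76, 5.96 and 5.30 FPKM in low against 7.13, 6.49 and 6.07 FPKM in standard arginine. Its fall was slight (log2 change -0.18 ± 0.07, SE; limma adjusted p = 0.0421) and was lost when any of 5 single libraries was left out, low replicates 1 and 3, standard replicates 1 and 2 and high replicate 2, with limma adjusted p-values of 0.0600 to 0.160, and under TPM (limma adjusted p = 0.336).

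Of the scaffold genes, Eif4g3 had 31.6, 26.7 and 25.6 FPKM in low against 19.1, 18.7 and 18.6 FPKM in standard arginine (log2 change 0.54 ± 0.08, SE; limma adjusted p = 2.52e-04). Eif4g2, whose product lacks the eIF4E-binding part and serves other routes of initiation, had 70.3, 69.3 and 67.0 FPKM in low against 53.1, 48.8 and 56.7 FPKM in standard arginine (log2 change 0.38 ± 0.06, SE; limma adjusted p = 3.66e-04). Both rose without overlap between the groups. Eif4g1, the main scaffold, had 99.8, 89.7 and 81.4 FPKM in low against 97.3, 99.9 and 90.4 FPKM in standard arginine, and was not called (log2 change -0.09 ± 0.08, SE; limma adjusted p = 0.333).

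Of the helicase genes, Eif4a2 had 112, 116 and 122 FPKM in low against 87.4, 98.7 and 100 FPKM in standard arginine (log2 change 0.29 ± 0.07, SE; limma adjusted p = 0.00377), a change of 0.52 after quantile normalization. Eif4a1 had 58.2, 61.7 and 58.8 FPKM in low against 72.2, 76.5 and 74.7 FPKM in standard arginine, and fell (log2 change -0.32 ± 0.05, SE; limma adjusted p = 4.98e-04), less so under TPM (-0.20) and after quantile normalization (-0.17). The value of Eif4a1 is uncertain, since the processed pseudogene Eif4a-ps4 is 99.9% identical to it over 1218 bases and had 26.4% as many reads. That pseudogene stood at 52.7, 57.7 and 55.0 FPKM in low arginine and at 70.8, 72.2 and 72.6 FPKM in standard medium, the same direction as Eif4a1. Eif4b, which stimulates the helicase, had 45.7, 44.7 and 44.4 FPKM in low against 55.7, 64.4 and 55.7 FPKM in standard arginine, also a fall (log2 change -0.37 ± 0.06, SE; limma adjusted p = 4.85e-04; -0.24 after quantile normalization). Eif4h, a second helicase cofactor, Eif4a3, the helicase of the exon junction complex, and Eif4enif1, the eIF4E transporter, were not called, with log2 changes of 0.08, 0.14 and 0.12.

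The eIF2 subunits and the substitute factors eIF2A and eIF2D gave 5 tested genes, of which 0 rose and 2 fell in low arginine, with a median log2 change of -0.09 (0.03 under TPM). Eif2s3x, the gamma subunit that binds GTP and the initiator tRNA, had 21.8, 22.3 and 22.8 FPKM in low against 25.8, 29.3 and 30.5 FPKM in standard arginine. All low arginine libraries stood below all standard ones (log2 change -0.34 ± 0.07, SE; limma adjusted p = 0.00189; -0.22 under TPM), while its Y-linked copy Eif2s3y was listed at 0. Eif2s1, the alpha subunit that carries the site phosphorylated under stress, had 16.4, 18.6 and 17.4 FPKM in low against 16.1, 19.7 and 20.2 FPKM in standard arginine, and was not called (limma adjusted p = 0.428). Eif2s2, the beta subunit, was not called either (log2 change -0.05). Eif2d fell (log2 change -0.35 ± 0.08, SE; limma adjusted p = 0.00356) and Eif2a had a log2 change of 0.09 that was not called.

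The 5 eIF2B genes encode the subunits of 1 complex, and in low arginine 2 rose, 2 fell and 1 was not called. Eif2b3, which encodes the gamma subunit, had 5.69, 6.50 and 5.72 FPKM in low against 3.56, 2.97 and 3.24 FPKM in standard arginine. Every low arginine library was above every other library, and the ratio of means was 1.83 for low over standard arginine (log2 change 0.71 ± 0.09, SE; limma adjusted p = 3.90e-05). Eif2b2, the beta subunit and the highest of the 5, had 45.7, 44.4 and 43.3 FPKM in low against 39.2, 37.1 and 31.7 FPKM in standard arginine (log2 change 0.30 ± 0.07, SE; limma adjusted p = 0.00453). Eif2b4 and Eif2b5, the delta subunit and the catalytic epsilon subunit, fell by 0.35 ± 0.06 and 0.37 ± 0.07 on the log2 scale (SE; limma adjusted p = 8.22e-04 and 8.06e-04). Eif2b1, the alpha subunit, was not called at 18.4 ± 2.01 FPKM in low arginine and 16.1 ± 1.06 FPKM in standard medium (SD, n = 3 each). The summed level of the 5 genes was 107 ± 2.81 FPKM in low arginine and 105 ± 6.89 FPKM in standard medium (SD, n = 3 each), so the rises and falls left the sum within the spread between libraries.

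**Figure D3:**
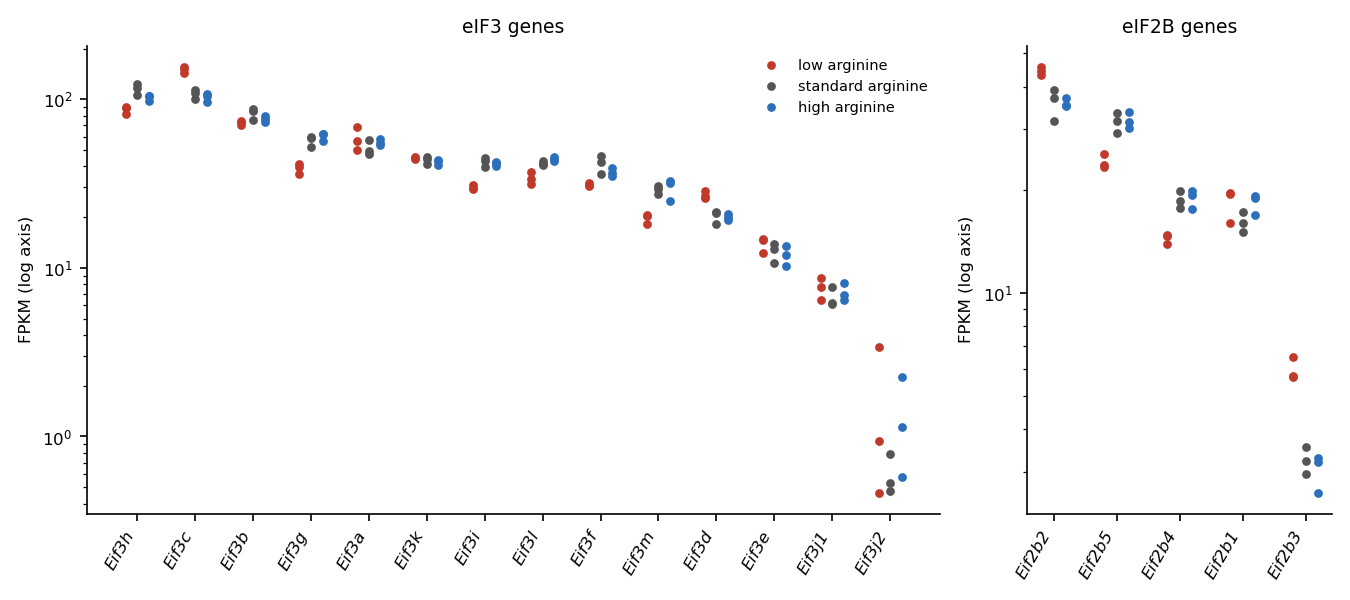
FPKM of the 14 eIF3 genes (left) and the 5 eIF2B genes (right) in each library (points) of low, standard and high arginine, on log axes with genes ordered by their mean level in standard arginine. Within each complex some genes, such as Eif3c and Eif2b3, lie higher in low arginine and others, such as Eif3g and Eif2b5, lie lower.

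The 14 eIF3 genes likewise split, with 2 called higher, 7 lower and 5 not called in low arginine and a median log2 change of -0.07. The calls make 64.3% of these genes, near the 62.2% of all genes. That median was 0.05 under TPM and 0.06 after quantile normalization, each with 4 genes higher and 6 lower. The summed level was 617 ± 8.27 FPKM in low arginine and 653 ± 25.7 FPKM in standard medium (SD, n = 3 each), and the libraries of both groups almost met, the highest low arginine sum being 627 FPKM and the lowest standard one 629 FPKM.

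Eif3c, a core subunit and the gene with the highest mean level of the complex, had 144, 156 and 151 FPKM in low against 101, 113 and 109 FPKM in standard arginine. Eif3d, which encodes the subunit that can itself bind the cap of some mRNAs, had 28.4, 26.8 and 26.1 FPKM in low against 21.2, 21.4 and 18.2 FPKM in standard arginine. Both rose without overlap, with log2 changes of 0.48 ± 0.06 and 0.40 ± 0.07 (SE; limma adjusted p = 9.21e-05 and 5.56e-04).

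The falls were widest in Eif3m, Eif3g and Eif3i. Eif3m, of the structural core of the complex, had 18.3, 20.3 and 20.5 FPKM in low against 27.5, 29.2 and 30.5 FPKM in standard arginine (log2 change -0.54 ± 0.10, SE; limma adjusted p = 6.19e-04). Eif3g, an RNA-binding subunit needed for scanning, had 36.2, 41.1 and 39.7 FPKM in low against 59.0, 59.8 and 52.1 FPKM in standard arginine (log2 change -0.53 ± 0.07, SE; limma adjusted p = 9.69e-05). Eif3i, its neighbour in the complex, had 29.4, 30.9 and 29.7 FPKM in low against 43.0, 44.7 and 39.6 FPKM in standard arginine (log2 change -0.48 ± 0.06, SE; limma adjusted p = 3.69e-05). In each of the 3 genes the groups stood well apart.

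Eif3h and Eif3f, which form a module with Eif3m in that core, fell by 0.40 ± 0.07 and 0.40 ± 0.08 on the log2 scale (SE; limma adjusted p = 3.77e-04 and 0.00160). Eif3h had 82.3, 90.4 and 88.4 FPKM in low against 117, 123 and 106 FPKM in standard arginine, and Eif3f had 30.5, 32.1 and 31.1 FPKM in low against 42.6, 46.0 and 36.3 FPKM in standard arginine. The change of Eif3h was -0.18 after quantile normalization. Eif3l and Eif3b fell less, by 0.28 ± 0.06 and 0.18 ± 0.07 (SE; limma adjusted p = 0.00283 and 0.0392). Under TPM Eif3l had -0.16, and Eif3b was not called (limma adjusted p = 0.352). Eif3a, the largest subunit, Eif3e, Eif3k, Eif3j1 and Eif3j2 were not called. Eif3j1 and Eif3j2 are 99.4% identical over 2379 bases, so their reads cannot be separated, and Eif3j2 stood at 3.41 FPKM in the first low arginine library and at 0.945 and 0.463 FPKM in the other low arginine libraries.

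The elongation factors had the highest summed level of the role groups, and their called genes all fell. Of 6 tested genes 0 rose and 5 fell in low arginine, with a median log2 change of -0.33. Under TPM 3 fell and after quantile normalization 4. Their summed level was 1870 ± 50.0 FPKM in low arginine, 2649 ± 144 FPKM in standard and 2498 ± 54.1 FPKM in high (SD, n = 3 each), and the low arginine sums stood below all others. Eef2 alone made most of the fall in the sum, averaging 363 FPKM in low arginine and 853 FPKM in standard medium.

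Eef2, the translocase, lies at chr10:81176631-81182498 on the plus strand. It had 377, 365 and 346 FPKM in low against 888, 909 and 763 FPKM in standard arginine. The high arginine libraries, at 851, 744 and 712 FPKM, overlapped the standard ones, and no low arginine library came near either. The ratio of means was 0.42 for low over standard arginine, and the log2 change of -1.23 ± 0.08 (SE; limma adjusted p = 7.13e-07) was the widest fall among the 57 tested factor genes. After quantile normalization it was -0.79 (limma adjusted p = 3.99e-06).

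Eef1a1, the tRNA carrier, had the highest level of the factor genes, at 1028, 1137 and 1097 FPKM in low against 1208, 1332 and 1263 FPKM in standard arginine. The groups did not overlap, but the fall was small (log2 change -0.22 ± 0.06, SE; limma adjusted p = 0.00986). It was not called under TPM (log2 change -0.10, limma adjusted p = 0.140), after quantile normalization (-0.01, limma adjusted p = 0.679) or without the filter on low values (limma adjusted p = 0.176). Eef1a2, the form known from neurons and muscle, had 159, 149 and 139 FPKM in low against 174, 167 and 142 FPKM in standard arginine, with overlap and no call (limma adjusted p = 0.321).

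All 3 genes of eEF1B fell. Eef1g, the gamma subunit, had 186, 185 and 183 FPKM in low against 260, 268 and 225 FPKM in standard arginine (log2 change -0.44 ± 0.07, SE; limma adjusted p = 3.17e-04). Eef1b2, a nucleotide exchange subunit, had 68.3, 78.4 and 77.9 FPKM in low against 98.9, 107 and 101 FPKM in standard arginine (log2 change -0.45 ± 0.07, SE; limma adjusted p = 2.57e-04). Eef1d, the other exchange subunit, averaged 11.9 ± 0.201 FPKM in low against 13.9 ± 1.31 FPKM in standard arginine (SD, n = 3 each), a smaller fall (log2 change -0.20 ± 0.07, SE; limma adjusted p = 0.0334) that was not called under TPM (limma adjusted p = 0.295). After quantile normalization the changes of Eef1g and Eef1b2 were -0.23 and -0.26. In all 3 genes the highest low arginine library was below the lowest standard one.

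**Figure D4:**
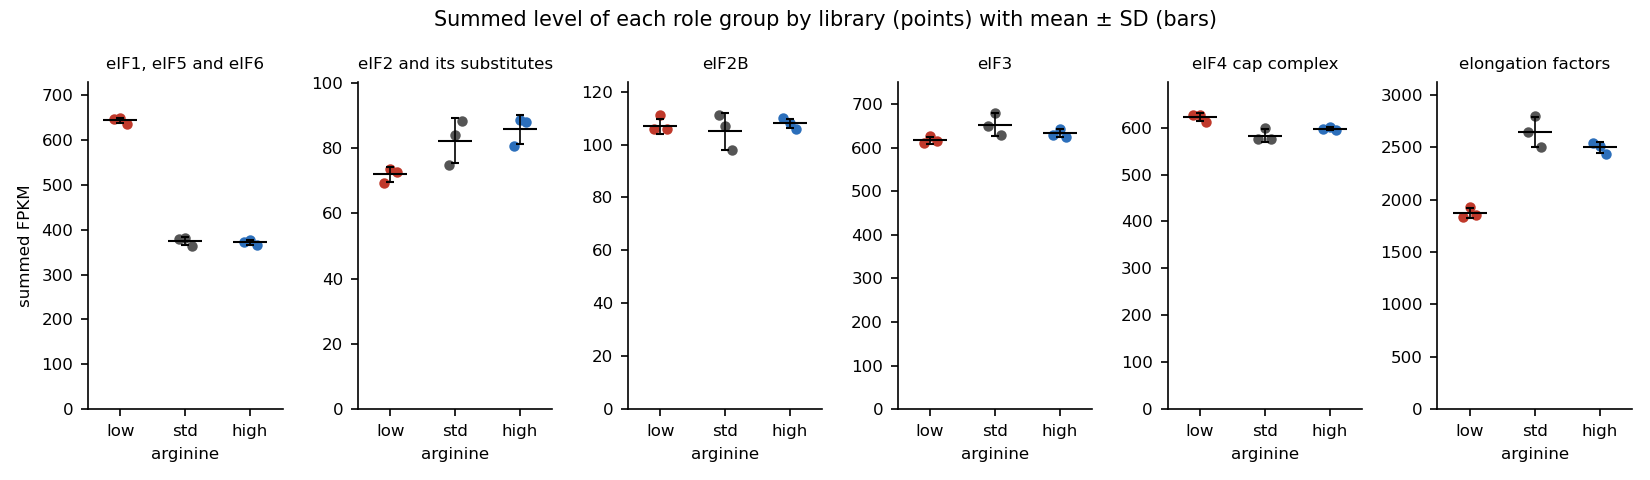
Summed FPKM of 6 role groups of factor genes in each library (points) with the mean ± SD of each group (bars), in low, standard (std) and high arginine, each panel with its own axis from 0. The sum of the eIF1, eIF5 and eIF6 genes lies at 637 to 649 FPKM in low against 364 to 381 FPKM in standard arginine, and the elongation factor sum at 1831 to 1926 FPKM in low against 2507 to 2795 FPKM in standard arginine. Most of the first difference is that of Eif1 and most of the second that of Eef2.

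Among 7 enzymes and partners of the elongation factors 0 rose and 3 fell in low arginine, 42.9% called beside 62.2% of all genes. Eef2k, the kinase that inactivates eEF2, had 1.92, 1.88 and 1.42 FPKM in low against 2.34, 2.58 and 2.13 FPKM in standard arginine (log2 change -0.29 ± 0.09, SE; limma adjusted p = 0.0202). Eef2kmt, the lysine methyltransferase of eEF2, fell by 0.23 ± 0.06 (SE; limma adjusted p = 0.00596). Eef1akmt3, a methyltransferase of eEF1A, had 1.08, 1.03 and 0.927 FPKM in low against 1.99, 2.31 and 1.72 FPKM in standard arginine (log2 change -0.58 ± 0.09, SE; limma adjusted p = 2.93e-04). All 3 genes stood below 5 FPKM in every library. The change of Eef1akmt3 was -0.91 with a pseudocount of 0.1. Under TPM Eef1e1 was called higher, while Eef2k and Eef2kmt were not called (limma adjusted p = 0.0634 and 0.0852). Eef1e1, a partner of the aminoacyl-tRNA synthetase complex, and Eef1akmt1, Eef1akmt2 and Eef1akmt4 were not called.

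Of the reads in genes, the factor genes took 1.39 ± 0.00536% in low arginine libraries, 1.44 ± 0.0165% in standard and 1.39 ± 0.00323% in high ones (SD, n = 3 each). Eif4a2, Eif2b4, Eif2a, Eif4enif1, Eif3j1, Eif2d, Eif5b, Eef2kmt, Eef1akmt3, Eef1akmt4 and, by 9 bases, Eef1b2 overlap a gene on the opposite strand that had over 100 reads per library on average. Whether counting used strand is not given in the sources, so reads of such pairs may be shared. Eef1akmt2 overlaps Fgfr2 on the same strand over 25217 bases, where strand cannot separate reads. Fgfr2 had 379 and Eef1akmt2 371 reads per library on average.

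Several factors are encoded by related genes, and their shares of the summed FPKM of each family are given here as a description, with no test. Eif4a2 made up 65.9, 65.3 and 67.4% of Eif4a1 plus Eif4a2 in the low arginine libraries, against 54.8, 56.3 and 57.2% in the standard arginine libraries. Eif4e made up 62.3, 64.7 and 64.0% of the 3 cap-binding genes in low against 52.4, 53.4 and 55.6% in standard arginine. Eif4g1 made up 49.5, 48.3 and 46.8% of the 3 scaffold genes in low against 57.4, 59.7 and 54.5% in standard arginine. In these 3 families no low arginine library overlapped a standard one, and the first carries the pseudogene limit of Eif4a1.

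Eif1 made up 84.1 ± 0.615% of Eif1 plus Eif1b in low and 78.1 ± 0.439% in standard arginine (SD, n = 3 each). The shares within the eEF1A and eIF1A pairs overlapped between the same media, Eef1a2 at 12.1 ± 1.17% in low and 11.3 ± 1.27% in standard arginine, and Eif1a at 61.3 ± 1.15% in low and 60.4 ± 0.560% in standard arginine (SD, n = 3 each).

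**Figure D5:**
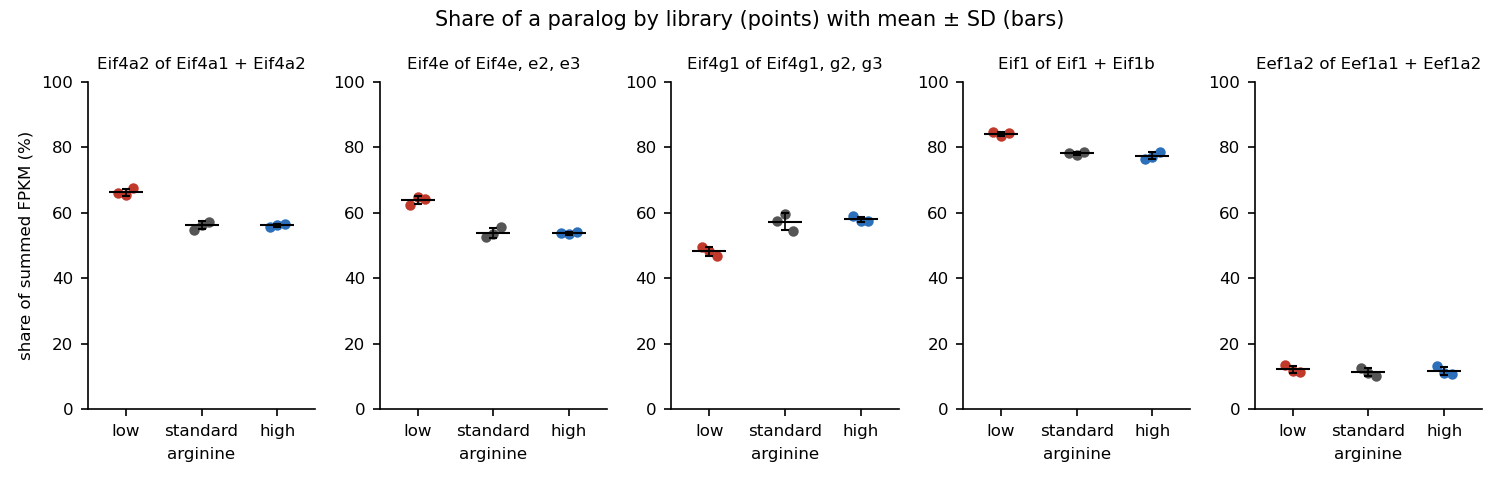
Share of 1 gene in the summed FPKM of its family, in percent, in each library (points) with the mean ± SD of each group (bars), in low, standard and high arginine. Eif4a2 averages 66.2% in low against 56.1% in standard arginine and Eif4g1 48.2% against 57.2%, while Eef1a2 averages 12.1% against 11.3% with overlapping libraries.

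In high against standard arginine no factor gene was called by limma, 0 higher and 0 lower of 57, beside 0.309% of all genes, and 0 were called with voom weights. At an unadjusted p under 0.05 there were 5, beside 14.3% of all genes, and 6 had groups without overlap, beside 18.5% of all genes. The log2 changes ran from -0.26 to 0.48, with a median of 0.00 beside 0.01 for all genes. The smallest p belonged to Eef1akmt1, which encodes a lysine methyltransferase of eEF1A, with 13.2, 12.5 and 12.2 FPKM in high against 15.0, 16.7 and 14.3 FPKM in standard arginine. Its high arginine libraries all lay lower (log2 change -0.26 ± 0.06, SE; limma adjusted p = 0.124).

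Eif2s2 followed, with 20.2, 21.7 and 21.2 FPKM in high against 16.5, 17.7 and 20.3 FPKM in standard arginine, where 1 standard library reached the high arginine range (log2 change 0.21 ± 0.07, SE; limma adjusted p = 0.240). A pseudogene 99.5% identical to Eif2s2 had 9.22% as many reads. Eif3h was next, with 104, 104 and 98.0 FPKM in high against 117, 123 and 106 FPKM in standard arginine (log2 change -0.18 ± 0.07, SE; limma adjusted p = 0.268). Values of Eif1 and Eef2, whose changes in low arginine were the widest, stood at 168 ± 2.28 and 769 ± 72.9 FPKM in high against 169 ± 6.79 and 853 ± 78.8 FPKM in standard arginine (SD, n = 3 each).

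In high against low arginine 21 factor genes were called higher and 15 lower, 63.2% of the 57 tested, beside 61.5% of all genes, of which 32.3% were higher and 29.2% lower. Under TPM the counts were 14 higher and 22 lower. With the replicate number as a block they were 23 and 18, and Eif4g1 was then called higher (log2 change 0.14, limma adjusted p = 0.0307). This comparison uses the same low arginine libraries as the comparison with standard medium, so both share their spread. Values of both are given side by side for the genes with the widest changes. Eef2 had a log2 change of 1.08 in high against low arginine and -1.23 in low against standard arginine, and Eif1 had -1.10 and 1.10 in the same order. The tests of this comparison are also the tests of whether low and high arginine differ in their change from standard medium, since the standard libraries cancel.

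Genes that act on or beside these factors were read from the same fit. Of 8 tested regulators outside the set, 1 rose and 4 fell in low against standard arginine, 62.5% called beside 62.2% of all genes. Eif4ebp1, which encodes the mTORC1 target that sequesters eIF4E, averaged 94.3 ± 7.30 FPKM in low arginine and 67.8 ± 7.45 FPKM in standard medium (SD, n = 3 each; log2 change 0.47, limma adjusted p = 0.00132). Its relative Eif4ebp2 averaged 26.9 ± 1.46 FPKM in low arginine and 34.8 ± 2.19 FPKM in standard medium (SD, n = 3 each; log2 change -0.36, limma adjusted p = 9.00e-04). Eif2ak3, the endoplasmic reticulum eIF2 kinase PERK, and Eif5a fell by 0.62 and 0.21 (limma adjusted p = 7.90e-05 and 0.0367), the groups of Eif5a overlapping.

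Of 10 genes of termination and ribosome recycling 4 rose and 2 fell, so 6 of 10 were called. Hbs1l, the partner of Pelota in rescuing stalled ribosomes, averaged 28.6 ± 0.624 FPKM in low arginine and 13.9 ± 0.514 FPKM in standard medium (SD, n = 3 each; log2 change 0.99, limma adjusted p = 1.35e-07). Etf1, the release factor eRF1, and Abce1, the recycling ATPase, rose by 0.60 and 0.50 (limma adjusted p = 5.23e-05 and 0.00118), and Abcf1, which encodes an eIF2-associated ATPase, fell by 0.25 (limma adjusted p = 0.00520). Of 23 partners at the cap, the poly(A) tail and the helicase 9 rose and 6 fell, 65.2% called, so each of the 3 lists was near the 62.2% of all genes. Mknk1, a kinase of eIF4E, averaged 17.3 ± 1.07 FPKM in low arginine and 10.9 ± 0.185 FPKM in standard medium (SD, n = 3 each; log2 change 0.63, limma adjusted p = 9.55e-06). Mknk2, the other kinase of eIF4E and named here after its values were seen, fell, at 11.6 ± 0.476 FPKM in low arginine and 17.2 ± 1.10 FPKM in standard medium (SD, n = 3 each; log2 change -0.53, limma adjusted p = 3.96e-05). Paip2b and Paip1, which bind the poly(A)-binding protein, rose by 0.62 and 0.56 (limma adjusted p = 1.02e-05 and 2.06e-05), and Bzw2, an eIF5-like protein, by 0.73 (limma adjusted p = 1.11e-05). In high against standard arginine limma called 0 genes in each of these 3 lists, with 0, 2 and 2 genes at an unadjusted p under 0.05, beside 14.3% of all genes.

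Many mRNAs of translation factors and ribosomal proteins begin with an unbroken run of pyrimidines, the terminal oligopyrimidine tract, through which mTORC1 and LARP1 are known to control their translation and stability. Bases around the annotated start were therefore read from RefSeq promoter windows (GRCm38.p6), which matched 45 of the 59 symbols. The lines below give 30 bases around the annotated start, 5 before it and 25 from it. They show the widest fall, 4 other falls chosen because they hold a pyrimidine run, and the 4 widest rises that had a window. These lines are examples and do not compare falls with rises. Falls without a run, such as Eif3m and Eif3g at log2 changes of -0.54 and -0.53, are not printed. Nor is Eif2b2, a rise with a run. Capitals mark the longest pyrimidine run of a line where it has at least 8 bases. That run need not begin at the annotated start. A shorter run of 8 bases opens the Eif3l line and is left unmarked. Each sequence is written 5′ to 3′ on the strand of the gene.
Eef2, chr10:81176626-81176655, plus strand: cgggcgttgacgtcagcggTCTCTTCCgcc
Eif3f, chr7:108934410-108934439, plus strand: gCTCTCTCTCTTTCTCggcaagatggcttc
Eif3l, chr15:79075218-79075247, plus strand: cttcttccgCTCTCTCCCacgggcttctgg
Eif2s3x, chrX:94212627-94212656, minus strand: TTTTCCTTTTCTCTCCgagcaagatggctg
Eef1a1, chr9:78481700-78481729, minus strand: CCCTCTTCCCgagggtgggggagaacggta
Eif1, chr11:100319944-100319973, plus strand: cacaggggcggctatataagtgaatacagg
Eif4e, chr3:138526186-138526215, plus strand: gcagcggaggcggagggagctggtccttaa
Eif1b, chr9:120492601-120492630, plus strand: gggctaaatacgcggcgccggccattttgt
Eif4g3, chr4:137993450-137993479, plus strand: gcggccgtcctgccggactgctggaggcgg

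A run of at least 8 pyrimidines stood in these 30 bases in 6 of the 18 genes that fell in low arginine and had a window (33.3%), in 1 of the 11 that rose (9.09%) and in 3 of the 15 tested genes that were not called (20.0%), beside 10.3% of all 32851 windows. The 6 are Eef2, Eef1a1, Eif2s3x, Eif2b5, Eif3f and Eif3l, and the gene that rose is Eif2b2. For each factor gene 1 window was used, the nearest to the gene's 5′ end. The shares of all windows, here and below, were not limited to 1 window per gene or to tested genes, so the sets are unlike. A run anywhere in the 30 bases was counted, also where part of it lies before the annotated start. In Eef1a1, Eif2s3x, Eif2b5 and Eif3f the longest run begins before that start, and in Eef2 and Eif3l after it. Eif3l also holds a shorter run of 8 pyrimidines that begins before the annotated start. The shares are therefore no count of terminal oligopyrimidine tracts. The genes in each class are few and no test was made, and the start site used in MIN6 cells was not measured. In the whole 300-base promoter windows the E-box CACGTG, bound by MYC and related factors, stood in 4 of the 18 genes that fell, 1 of the 11 that rose and 5 of the 15 not called, beside 7.15% of all windows. The cyclic AMP response element TGACGTCA stood in 1 of the 18, that of Eef2, where it lies within the bases printed above, and in 0 of the others, beside 1.79% of all windows. The element TGATGNAA, the core of sites bound by ATF4 with C/EBP partners and searched on both strands, stood in 1 of the 18 (Eif2s3x) and 0 of the others, beside 3.97% of all windows. CACGTG and TGACGTCA read the same on both strands, and matches to different motifs overlapped in 0 windows of the factor genes and in 5 of all windows. A match describes the letters and shows no binding.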

How the data were processed

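RNA-seq of MIN6 cells gave 9 libraries, 3 per medium, grouped by the labels' treatment. The table the authors deposited holds FPKM per gene with the gene length used, per the file headers. Libraries were made from total RNA with a directional kit, per the labels' protocols. CASAVA 1.8, HISAT2 2.0.5 and featureCounts 1.5.0-p3 are listed in the submitters' processing notes, which name the build mm9. GENCODE M21 (GRCm38) holds 54409 of the gene IDs, and 98.33% of these have the same start and end in the file, as do 56 of the 59 factor genes, so coordinates are given as GRCm38.

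FPKM times gene length gave whole reads in 100.00% of values to within 0.01 reads, from which depth was rebuilt. The library size behind the FPKM was 0.962 to 1.077 times the reads in genes, so the deposited values already carried a scale factor. This factor differed by medium, at 1.048 to 1.077 in low, 0.962 to 1.016 in standard and 0.969 to 0.994 in high arginine libraries. A larger factor gives a lower FPKM at the same share of reads. A gene's precision follows its reads; the tested factor genes had 63.1 (Eef1akmt4) to 71869 (Eef1a1) reads per library on average. Replicates of every pair differed beyond sampling noise (chi-square per degree of freedom 2.59 to 12.6), and all were kept as separate samples.

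Genes with FPKM of at least 1 in at least 3 libraries were fitted as log2(FPKM + 1) in 1 limma 3.58.1 fit (R 4.3.3) over all 9 libraries, with group as the only term and a variance trend. P-values were two-sided and Benjamini-Hochberg adjusted over all 12300 tested genes per comparison, at a threshold of 0.05 with no fold threshold. The procedure was tested on simulated data with independent noise and 200 of 12300 genes changed, far fewer than were called here. It recovered 86% of changes of 1.25-fold and 100% of those of 1.5-fold, and 5.85% of its calls were false. Pairing by the replicate numbers in the titles was checked through the correlation of same-numbered libraries' deviations from their group means. In high against low arginine all 3 pairs lay above 0.1 (0.15 to 0.24) and 6 of 6 libraries correlated best with their own number. The data, not the labels, thus point to pairs there. The printed values and calls of that comparison still come from the fit without pairs, except where the replicate block is named. The members, role groups, gene lists and naming rule were chosen with earlier results of these data known. The rule names the 10 widest called rises and falls in low arginine, the 3 smallest p-values in high arginine, paralogs and the highest gene of each role. Of each list up to 4 called genes with the smallest p are named. The list names Eif5al1, Gcn1, Mtrfr and C12orf65 were not matched. Near-identical copies had at least 95% identity over at least 200 bases (blastn 2.17.0 against GENCODE M21 transcripts). Alternatives covered the pseudocount, the filter, TPM and quantile scaling, only the 2 groups compared, a replicate block, voom weights and leaving out each library.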

Additional observations from a re-analysis of the deposited data

How the results depend on the processing

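In low against standard arginine the counts of factor genes called higher and lower were 15 and 24, and every alternative kept each within 1.5 times. TPM moved both counts most, to 22 and 16, so that rises outnumbered falls, and quantile normalization gave 21 and 22. The counts were 13 and 19 without the filter, 14 and 21 at a mean FPKM of at least 5 and 14 and 22 with only the 2 groups compared. With 1 library left out they were 13 to 15 and 20 to 25. In high against standard arginine limma called 0 and 0 factor genes under each alternative run. Over all genes the counts there were 17 higher and 21 lower. They were 4 and 2 without the filter, 26 and 24 at a mean FPKM of at least 5, 40 and 34 with voom weights, 0 and 0 when the low arginine libraries were left out of the fit, and 0 to 26 and 0 to 35 with 1 library left out, 0 and 0 without standard replicate 2 or high replicate 3. At a mean FPKM of at least 5, with fewer genes tested, 2328 genes were higher in low against standard arginine, beside 3723 otherwise, and 2190 lower in high against low arginine, beside 3594. Of the values of named genes, 577 of 592 in low against standard arginine kept direction and side of the threshold, 13 lost the call and 2 gained it; in high against low arginine 554 kept them, 33 lost it, 4 gained it and 1 reversed. The reversed value was Eef1a1 in high against low arginine, which was 0.16 on the log2 scale and -0.11 after quantile normalization (limma adjusted p = 0.00730); the cause was not tested. Outside high against low arginine, pairing by replicate number was not shown: same-numbered deviations correlated at -0.04 to 0.12 in low against standard arginine, with 1 of 3 pairs above 0.1, and at -0.03 to 0.20 in high against standard arginine, with 2 of 3, and 4 of 6 libraries correlated best with their own number in each. With the replicate block 20 factor genes were higher and 25 lower in low against standard arginine, 23 and 18 in high against low arginine, and 0 and 0 in high against standard arginine, where over all genes it gave 46 and 42. Among named genes the block added the calls of Eef1akmt1 in low against standard (limma adjusted p = 0.0458) and Eif4g1 in high against low arginine (0.0307) and changed no other. Depth limits low genes such as Eef1akmt4, and Eif3j1 and Eif3j2 cannot be separated.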

Other observations

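Factors outside cytosolic initiation and elongation were read from the same fit. Of 10 mitochondrial translation factors 6 rose and 2 fell in low against standard arginine, beside 30.3% of all genes called higher and 31.9% lower. Mtif3, a mitochondrial initiation factor, averaged 4.24 ± 0.209 FPKM in low arginine and 2.70 ± 0.0989 FPKM in standard medium (SD, n = 3 each; log2 change 0.50, limma adjusted p = 5.03e-05), and Mtrf1l, a mitochondrial release factor, rose by 0.32 (limma adjusted p = 0.00126). Tufm and Gfm1, the mitochondrial counterparts of eEF1A and eEF2, fell by 0.47 and 0.37 on the log2 scale (limma adjusted p = 1.64e-04 and 2.57e-04). In high against standard arginine limma called 0 of the 10, with 2 at an unadjusted p under 0.05, beside 14.3% of all genes.

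Of 7 tested genes for selenocysteine insertion and for diphthamide, the modified histidine of eEF2, 2 rose and 0 fell in low arginine, 28.6% called beside 62.2% of all genes. Dph1 averaged 8.91 ± 0.411 FPKM in low arginine and 5.12 ± 0.364 FPKM in standard medium, and Dph2 averaged 7.49 ± 0.277 FPKM in low arginine and 4.38 ± 0.111 FPKM in standard medium (SD, n = 3 each). Both genes encode subunits of the enzyme of the first diphthamide step, and their log2 changes were 0.70 and 0.66 (limma adjusted p = 8.19e-06 and 1.27e-05), beside the fall of Eef2. In high against standard arginine limma called 0 of the 7, with 2 at an unadjusted p under 0.05.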
